A study of Mus musculus with 4 samples.

Results

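Small structural RNA genes, whose products act as RNA and are not translated, held between 12.9% and 20.7% of the reads counted in 4 ribosome profiling (Ribo-seq) libraries of mouse spermatocytes. Members were chosen by gene symbol: the Snord, Snora, Scarna, Rnu and Mir genes with a number after the stem, together with *Rn45s*, *Rpph1*, *Rmrp*, *Terc* and *Rn7sk*. The rule found 136 of the 11598 genes in the table, and no row was named *Rn7sk*. They were 54 C/D small nucleolar RNAs (snoRNAs), 29 H/ACA snoRNAs, 8 small Cajal body RNAs (scaRNAs), 38 microRNA genes, 3 Rnu genes (*Rnu11*, *Rnu12* and *Rnu73b*) and 4 others (*Rn45s*, *Rpph1*, *Rmrp* and *Terc*).

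Ribo-seq sequences the RNA fragments left after RNase digestion of a cell lysate, so that fragments shielded by ribosomes mark translated messages. The libraries came from leptotene and zygotene spermatocytes, the cells at the start of meiotic prophase, sorted from testes at 12 days post partum (dpp), with 2 libraries labelled as wild type (called control) and 2 labelled *Eef1g*-cKO. Both groups were on the C57BL/6J background and controls were littermates, and in *Eef1g*-cKO the transgene *Stra8*-GFPCre removed exons 2 to 7 of *Eef1g*, which encodes a scaffold subunit of the factor that recharges elongation factor eEF1A. That Cre acts in male germ cells from type A1 spermatogonia onward, so cells of other types in the sort keep the gene. Nothing in the labels states whether the libraries of a group came from separate animals or pools, so p-values measure the spread between these libraries. Library totals were worked back from the authors' length-scaled levels (FPKM). They were 2479504 counted reads for control replicate 1, 1384282 for control replicate 2, 223906 for *Eef1g*-cKO replicate 1 and 407979 for *Eef1g*-cKO replicate 2. The genes of the table summed to slightly fewer, 2470711, 1379610, 222777 and 406593 reads in the same order. Levels are given as rpm, reads per 1000000 of the library total, and shares of counted reads use the same totals. The targeted gene *Eef1g* had 107 and 58 reads in control and 0 and 4 reads in *Eef1g*-cKO.

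These RNAs work inside protein complexes. C/D snoRNAs guide methylation of ribosomal RNA, and H/ACA snoRNAs guide conversion of uridine to pseudouridine, while scaRNAs do the same for the small nuclear RNAs of the spliceosome. U11, made from *Rnu11*, and U12, made from *Rnu12*, recognise the rare minor class of introns. *Rpph1* and *Rmrp* encode the RNA subunits of RNase P, which trims precursor transfer RNAs, and of RNase MRP, which cuts precursor ribosomal RNA. *Terc* is the template RNA of telomerase, *Rn45s* is the precursor of the ribosomal RNAs, and Mir genes give hairpins from which short mature microRNAs are cut. None of these RNAs is decoded by ribosomes, so their reads are counted here as background of a kind other than footprints on messages. Fragments of 26 to 34 nt were cut from a gel before library construction, and a step that separates ribosomes from other RNA-protein particles is not given in the sources used here.

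The RNAs that the results turn on are printed from the mouse genome GRCm38.p6 at their RefSeq positions. *Rnu11* took more reads than any other gene, *Snord104* and *Snord57* were higher in *Eef1g*-cKO, and *Snora21*, *Snora7a* and *Snora20* show H/ACA members that went in both directions. Capitals mark the run ATTTTTTGG, the binding site type for Sm proteins, in *Rnu11*. In C/D snoRNAs they mark box C (TGATGA) and the last box D (CTGA), and in H/ACA snoRNAs the ACA that stands 3 bases before the end.
Rnu11, chr4:132270079-132270186, minus strand: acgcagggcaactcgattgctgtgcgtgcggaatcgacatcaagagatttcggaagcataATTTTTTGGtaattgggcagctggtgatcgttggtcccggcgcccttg
Snord104, chr11:106500991-106501063, plus strand: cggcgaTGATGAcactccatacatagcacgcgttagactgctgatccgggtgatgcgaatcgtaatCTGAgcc
Snord57, chr2:130278026-130278088, plus strand: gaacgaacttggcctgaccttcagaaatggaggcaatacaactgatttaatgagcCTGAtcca
Snora21, chr11:97781639-97781766, minus strand: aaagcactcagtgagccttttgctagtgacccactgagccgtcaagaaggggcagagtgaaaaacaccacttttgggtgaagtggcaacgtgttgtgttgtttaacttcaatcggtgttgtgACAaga
Snora7a, chr6:115807975-115808103, minus strand: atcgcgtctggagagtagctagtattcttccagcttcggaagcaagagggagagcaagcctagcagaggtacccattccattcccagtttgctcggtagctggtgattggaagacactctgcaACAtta
Snora20, chr17:12922857-12922917, plus strand: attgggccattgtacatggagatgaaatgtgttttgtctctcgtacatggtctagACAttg

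Of the 136 members, 134 matched a RefSeq gene by symbol, and the length in the table equalled the RefSeq length for 130 of them. *Rn45s* and *Rnu73b* had no match. RefSeq spans are often shorter than the RNA: the GENCODE M21 span was at least 10 nt longer for 56 of 132 members, and that of *Snora20* was 128 nt against 61 nt. The CTGA of box D was in all 54 C/D members, against 25 of 54 windows of equal length that lay 1000 bases upstream, all read on the member's strand. Box C was in 18 of 54 RefSeq spans, 38 of 54 GENCODE spans and 2 of 54 upstream windows. The terminal ACA was in 19 of 28 H/ACA RefSeq spans, 23 of 28 GENCODE spans and none of the 28 upstream windows. These matches are descriptions of letters, and overlaps between boxes were not removed.

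The share of counted reads on the 136 members was 20.7% and 13.0% in control libraries against 12.9% and 14.8% in *Eef1g*-cKO. It was highest in control replicate 1, and control replicate 2 lay between the *Eef1g*-cKO libraries, so the groups overlapped. Their means were 16.9% ± 5.46 (SD, n = 2) and 13.8% ± 1.36 (SD, n = 2), a difference of -3.04 percentage points with p = 0.667 (exact two-sided permutation test, whose smallest possible p with 2 against 2 is 0.333). Exact 95% binomial intervals, which cover counting error only, spanned 20.7% to 20.8%, 13.0% to 13.1%, 12.7% to 13.0% and 14.7% to 14.9%, and the gap between the control replicates was far wider than these. The difference was 0.83 percentage points, in the other direction, without control replicate 1.

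*Rnu11* and *Rn45s* together held 87.9% and 86.5% of the member reads in control libraries against 73.3% and 80.8% in *Eef1g*-cKO. The other 134 members held 2.51% and 1.76% of all counted reads in control libraries against 3.44% and 2.84% in *Eef1g*-cKO, with both *Eef1g*-cKO libraries above both controls (2.13% ± 0.535 against 3.14% ± 0.419, SD, n = 2 each, exact permutation p = 0.333). For C/D snoRNAs the groups did not overlap either, at 0.882% and 0.791% of counted reads in control libraries against 2.49% and 1.77% in *Eef1g*-cKO. Without *Snord104* the other 53 C/D members still held more in both *Eef1g*-cKO libraries, at 0.997% and 0.922% against 0.712% and 0.481%. H/ACA snoRNAs held 0.749% and 0.330% in control libraries against 0.383% and 0.400% in *Eef1g*-cKO, and the groups overlapped. MicroRNA genes held 0.0627% and 0.0325% in control against 0.0393% and 0.0385%, and scaRNAs 0.0398% and 0.0165% against 0.0322% and 0.0402%, again with overlap.

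**Figure D1:**
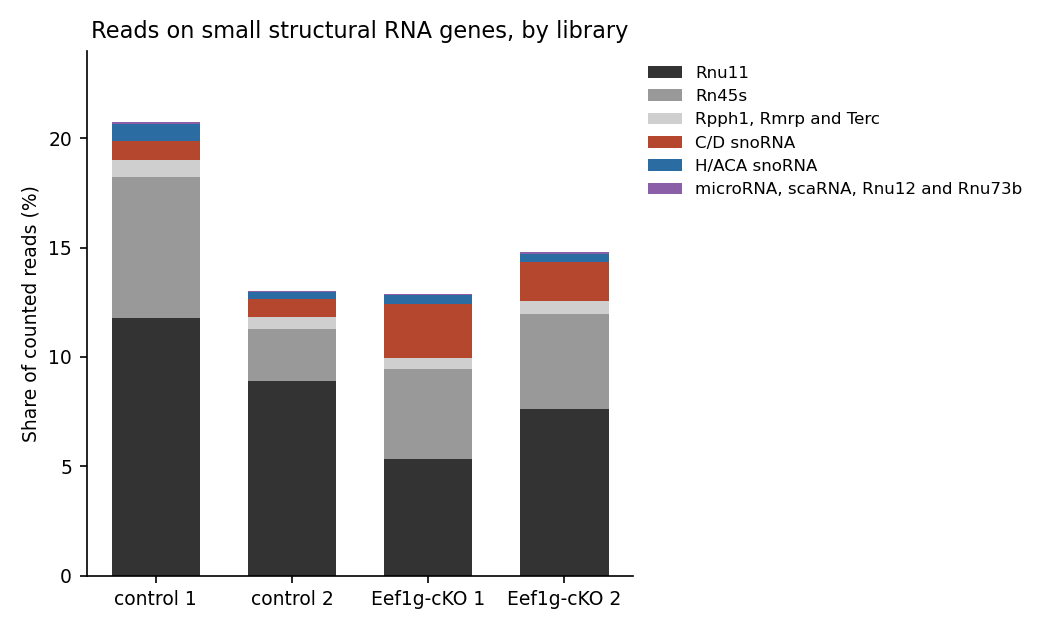
Stacked bars give the percent of counted reads in each of the 4 libraries, divided by gene or RNA class. The dark *Rnu11* block measures 11.8% and 8.89% for control against 5.33% and 7.60% for *Eef1g*-cKO, while the C/D snoRNA block is larger in both *Eef1g*-cKO libraries.

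*Rnu11*, the U11 gene of 108 nt that overlaps no other RefSeq gene, was the gene with the highest level in the table. It had 117718 and 88942 rpm in control libraries against 53290.2 and 75979 in *Eef1g*-cKO. Both *Eef1g*-cKO libraries lay below both controls, and their mean was 0.626 times that of control. The difference did not pass a test: its log2 fold change was -0.69, with an adjusted p of 0.918 by limma and 0.114 by edgeR. Limma's error for it (SE 3.81) rests on a variance trend at a level that no other gene reaches, and without the trend the SE was 0.36 and the adjusted p 0.272. Of its 83 windows of 26 nt, the shortest fragment kept, 58 occur once in the chromosomes, and the rest occur in up to 3 places.

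*Rnu12*, the U12 gene, had few reads, with 19 and 85 reads in control libraries against 0 and 6 in *Eef1g*-cKO. Only 15 of its 125 windows of 26 nt occur once in the chromosomes, so its reads may be split with copies. *Rnu73b*, which GENCODE lists as a snoRNA, had 36 and 19 reads in control libraries against 7 and 11 in *Eef1g*-cKO, or 14.5, 13.7, 31.3 and 27.0 rpm. It rose by limma (log2 fold change 1.04, SE 0.20, adjusted p = 0.042) and did not pass edgeR (adjusted p = 0.170). Among proteins of the minor spliceosome, 15 of 16 were in the table and none passed limma's adjusted test in either direction, with a median log2 fold change of -0.75 against -0.23 over all tested genes. The 2 with most reads, *Prpf8* and *Sf3b1*, which also serve the major spliceosome, had log2 fold changes of -0.35 and -0.77.

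The profile of *Rnu11* over the 4 libraries was also compared with that of each of 309 other genes with at least 100 reads in every library, by the distance of centred log2 rpm. The closest was *Hnrnpu*, which encodes a nuclear RNA-binding protein, at a distance of 0.34 where the median was 1.28. It was followed by *Tpr* of the nuclear pore (0.37), the helicase gene *Dhx9* (0.42), *Ywhae* (0.43) and *Son*, a splicing cofactor gene (0.43). The order is a description over 4 libraries, and no test was made.

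*Rn45s* varied widely between control replicates, with 64615 and 23678 rpm in control libraries against 41205 and 43637 in *Eef1g*-cKO. Both *Eef1g*-cKO libraries fell between the controls, so no difference between the groups was seen beyond the replicate spread (log2 fold change 0.12, limma adjusted p = 0.907). Whether ribosomal RNA reads were removed before counting is not given in the sources used here, so this level is what remained in the table.

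*Rpph1* had 4961 and 4399 rpm in control libraries against 3229 and 3797 in *Eef1g*-cKO, and *Rmrp* had 2626, 1308, 1460.4 and 1924 in the same order. *Rpph1* was lower in both *Eef1g*-cKO libraries without passing the test (log2 fold change -0.42, limma adjusted p = 0.600), and for *Rmrp* the groups overlapped. *Terc* had 184 and 73.7 rpm in control libraries against 161 and 154 in *Eef1g*-cKO, also with overlap. Of the 10 RNase P and MRP protein genes tested, *Rpp25l* and *Rpp40* fell by limma (log2 fold changes -2.50 and -2.85, SE 0.46 and 0.55, adjusted p = 0.038 and 0.042), and the list's median was -0.61. *Rpp40* had 73, 28, 0 and 1 reads. Of 4 telomerase protein genes, *Tert* fell, from 37 and 29 reads in control to none in either *Eef1g*-cKO library. *Dkc1*, which also belongs to H/ACA particles, had a log2 fold change of -0.74 (adjusted p = 0.291). The 7 proteins of the 7SK particle, whose RNA gene was the one absent member of the rule, gave no call and a median of 0.03.

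**Figure D2:**
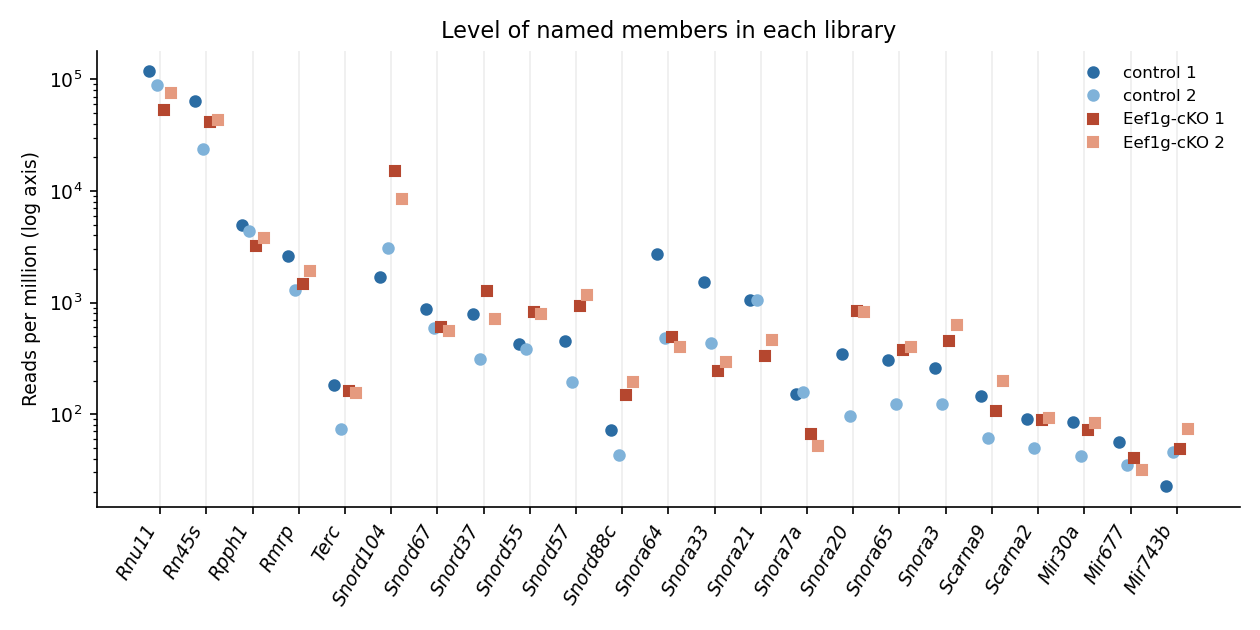
Each point is the level of a member in 1 library, in rpm on a log axis, for the members with most reads and others described in the text. The 2 *Eef1g*-cKO squares lie above the 2 control circles for *Snord104*, *Snord55*, *Snord57*, *Snord88c*, *Snora20*, *Snora65*, *Snora3* and *Mir743b*, and below them for *Rnu11*, *Rpph1*, *Snora33*, *Snora21* and *Snora7a*.

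Across all members, limma on log2(FPKM + 1) called 3 members increased and 14 decreased with a Benjamini-Hochberg adjusted p below 0.05 and a change of over 1 on the log2 scale in either direction. FPKM is rpm divided by gene length in kilobases. Over the 10475 genes tested, 2.87% were called increased and 4.97% decreased. By unadjusted p the members gave 17 increases and 23 decreases, where all genes gave 7.32% and 16.3%. With libraries centred on their medians the split was 6 against 14 by adjusted p and 25 against 19 by unadjusted p. All tested genes then gave 521 against 383 by adjusted p and 1157 against 1346 by unadjusted p. All 136 members passed the filter of a mean of at least 1 FPKM, most of them short enough that a few reads reach it. Of the 14 decreased members, 12 had no read in either *Eef1g*-cKO library, and the 2 with reads in both were *Snora7a* and *Snora74a*. The 3 increased members were *Snord35a*, *Snord88c* and *Rnu73b*. None of these 17 calls was made when either control library was left out, a setting in which limma called no gene of the table.

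A test on whole reads gave another set. edgeR's quasi-likelihood test, which kept 85 members, called 13 increased and 7 decreased, where it called 8.75% and 11.2% of the 8056 genes it tested. Of these, 1 increase and 2 decreases were also called by limma. Each library was also left out in turn, which leaves 1 library in a group, so only fold changes are given. The log2 fold change by edgeR then ran from 1.95 to 2.76 for *Snord104* and from -1.63 to -1.08 for *Snora21*.

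By counts of members beyond both controls, the C/D class stood apart from all tested genes, and the other classes lay nearer to them. Of the 54 C/D members, 25 (46.3%) had both *Eef1g*-cKO libraries above both controls and 5 (9.26%) had both below. Over all tested genes, 24.6% were above and 37.7% below. Of the 29 H/ACA members, 5 (17.2%) were above and 13 (44.8%) below. MicroRNA genes had 6 above and 12 below of 38, and scaRNAs 1 above and 2 below of 8. Median log2 fold changes were 0.62 for C/D, -0.85 for H/ACA, -0.39 for scaRNA and -0.84 for microRNA members, against -0.23 for all tested genes. On log2(rpm + 5) the medians were smaller in size, at 0.47, -0.44, -0.20 and -0.31, against -0.19. Members with at most 3 reads in each *Eef1g*-cKO library were 12 of 54 C/D, 10 of 29 H/ACA, 4 of 8 scaRNA and 25 of 38 microRNA members. Among members with a mean of at least 100 reads, chosen after the values were seen, the medians were 0.88 for 17 C/D and -0.41 for 12 H/ACA members, against -0.08 for 2338 tested genes of that depth. Of these 12 H/ACA members, 33.3% were above and 41.7% below, near the 33.3% and 39.0% of the 2338 genes. Of the 17 C/D members, 58.8% were above and 5.88% below. edgeR's increases were 11 of the 42 C/D members it tested and 2 of 20 H/ACA members, and its decreases were 6 H/ACA members, no C/D member and *Mir320*.

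**Figure D3:**
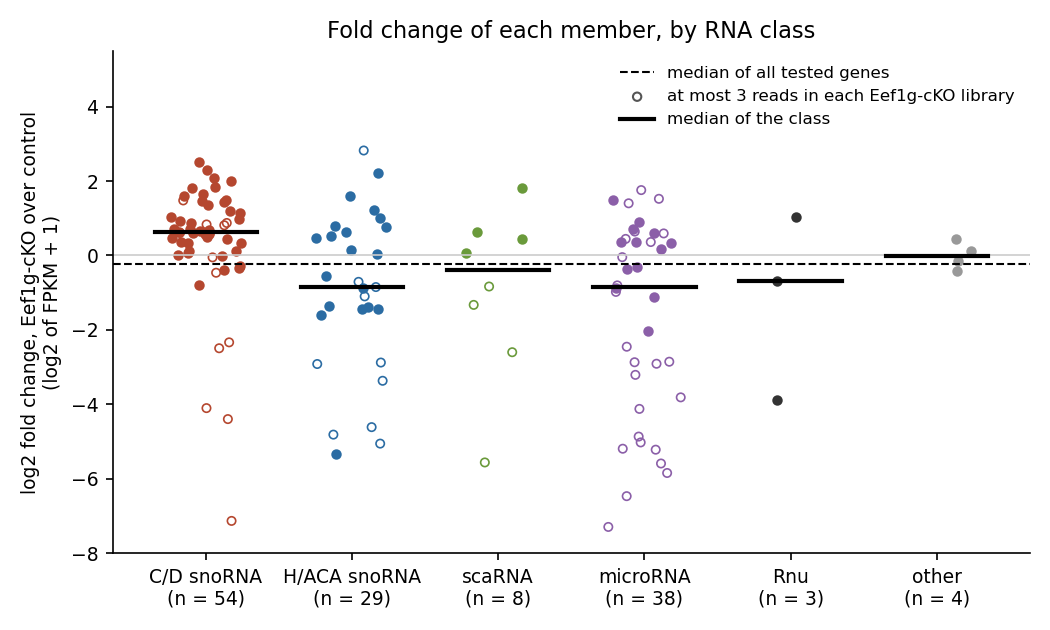
Each point is the log2 fold change of a member (*Eef1g*-cKO over control, from log2 of FPKM + 1), by RNA class, with open points for members with at most 3 reads in each *Eef1g*-cKO library. Most filled C/D points lie above the dashed median of all tested genes (-0.23), H/ACA points lie on both sides, and most values under -2 are open points.

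The C/D median kept its sign with each library left out, at 0.86 and 0.48 without control replicate 1 or 2 and 0.68 and 0.72 without *Eef1g*-cKO replicate 1 or 2. The H/ACA median was -0.69 and -0.89 without control replicate 1 or 2 and -1.17 with *Eef1g*-cKO replicate 1 left out. It was -0.30 when *Eef1g*-cKO replicate 2 was left out, where that of all tested genes was -0.17. The microRNA median did not: it was 0.07 without control replicate 1 and -1.89 without control replicate 2. The medians of all members together changed in the same way, to 0.47 and -0.47.

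*Snord104*, a C/D snoRNA of 73 nt within the long non-coding RNA gene *Gm36220*, stood out among the C/D members. It had 1708 and 3099.8 rpm in control libraries against 14962 and 8503 in *Eef1g*-cKO. In reads these were 4234, 4291, 3350 and 3469, nearly the same number in libraries whose depth differed many times, and it ranked 3 among members by reads in both *Eef1g*-cKO libraries, against 6 and 4 in control. The mean was 4.88 times that of control and both *Eef1g*-cKO libraries lay above both controls. edgeR called the rise (log2 fold change 2.36, adjusted p = 1.38e-05), as did limma on log2(rpm + 5) (adjusted p = 0.002), while limma on FPKM did not (log2 fold change 2.29, SE 1.14, adjusted p = 0.231). In that last fit only 1 gene had a higher mean, and without the variance trend the SE was 0.48 and the adjusted p 0.079. All its windows of 26 nt occur once in the chromosomes.

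*Snord57*, in an intron of *Nop56*, a gene for a core protein of C/D particles, had 452 and 195 rpm in control libraries against 924.5 and 1167 in *Eef1g*-cKO. Both *Eef1g*-cKO libraries were higher, by edgeR with a log2 fold change of 1.75 and adjusted p = 3.64e-04, and with an adjusted p of 0.099 by limma. *Snord55* had 425 and 386 rpm in control libraries against 826 and 782 in *Eef1g*-cKO, with no overlap. Its edgeR log2 fold change was 1.06 (adjusted p = 0.001), and limma gave an adjusted p of 0.164.

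*Snord37*, in an intron of the elongation factor gene *Eef2*, had 795 and 311 rpm in control libraries against 1273 and 708 in *Eef1g*-cKO, and the groups overlapped. *Snord67*, in an intron of *Ckap5*, had 874 and 595 in control libraries against 598 and 551.5 in *Eef1g*-cKO, with overlap as well. *Snord67* is thus a C/D member with many reads that was not higher in *Eef1g*-cKO, and *Snord15a*, named here after its values were seen, was lower in both libraries (486 and 360 against 237 and 245 rpm) with an adjusted p of 0.138 by limma and a log2 fold change by edgeR that stayed within 1 (-0.74). *Snord88c* (177, 60, 33 and 79 reads) rose by limma (log2 fold change 1.60, SE 0.33, adjusted p = 0.047) and by edgeR. It and *Snord88a* lie in the same gene and hold windows of 26 nt that occur in 2 places in the chromosomes, so their reads depend on how such reads were counted. *Snord35a* rose by limma (log2 fold change 1.65, SE 0.33, adjusted p = 0.044) on 24, 7, 5 and 9 reads and did not pass edgeR (adjusted p = 0.095).

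The H/ACA members went both ways. *Snora21*, in an intron of *Rpl23*, had 1047 and 1062 rpm in control libraries against 335 and 458 in *Eef1g*-cKO, a mean 0.376 times that of control. Its control replicates were nearly equal, and edgeR called the fall (log2 fold change -1.32, adjusted p = 3.87e-04). Limma gave -1.43 (SE 0.37) with an adjusted p of 0.068. Of its 103 windows of 26 nt, 68 occur once in the chromosomes. *Snora7a*, in an intron of *Rpl32*, had 151 and 157 rpm in control libraries against 67.0 and 51.5 in *Eef1g*-cKO and fell by limma (log2 fold change -1.39, SE 0.24, adjusted p = 0.036) and by edgeR (adjusted p = 0.003).

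*Snora64*, in an intron of *Rps2*, had 2723 and 477 rpm in control libraries against 487 and 402 in *Eef1g*-cKO, and the groups overlapped. *Snora33*, in an intron of *Rps12*, had 1529 and 433 in control libraries against 246 and 294 in *Eef1g*-cKO. Both were called decreased by edgeR (log2 fold changes -1.81 and -1.79), but control replicate 1 set the size, and neither was called without it. *Snora31*, called with them, had 391 and 16 reads in control libraries against 0 and 4 in *Eef1g*-cKO, and it too was not called without control replicate 1.

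In the other direction, *Snora20*, in an intron of the chaperonin gene *Tcp1*, had 342 and 95.4 rpm in control libraries against 844 and 824 in *Eef1g*-cKO (edgeR log2 fold change 1.97, adjusted p = 7.78e-04, limma adjusted p = 0.090). *Snora3* had 260.1 and 123 in control libraries against 456 and 632 in *Eef1g*-cKO, called by edgeR (log2 fold change 1.57, adjusted p = 8.04e-04) and not by limma (adjusted p = 0.079). *Snora65*, in an intron of *Rpl12*, had 306, 123, 375 and 402 in the same order. Its *Eef1g*-cKO libraries were the higher, but its log2 fold change by edgeR stayed under 1 (0.91), and only 21 of its 93 windows of 26 nt occur once.

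The ratio of C/D to H/ACA reads, a comparison within each library that was added after the values were seen, was 1.18 and 2.40 in control libraries against 6.51 and 4.43 in *Eef1g*-cKO. It was higher in both *Eef1g*-cKO libraries (1.79 ± 0.861 against 5.47 ± 1.47, SD, n = 2 each, exact permutation p = 0.333, the smallest possible). Without *Snord104* it was 0.95, 1.46, 2.60 and 2.30, and without *Snora64*, *Snora33* and *Snora21* it was 4.03, 5.94, 9.02 and 6.22. The groups did not overlap in either case, though in the last the gap between control replicate 2 and *Eef1g*-cKO replicate 2 was small.

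Genes for the proteins that build these particles were read beside them. Of 17 snoRNP genes tested, *Nhp2*, a core H/ACA protein, *Shq1*, an assembly factor of H/ACA particles, and *Nolc1*, a nucleolar chaperone, fell by limma (log2 fold changes -1.87, -1.52 and -1.21, SE 0.32, 0.22 and 0.24, adjusted p = 0.035, 0.030 and 0.046). None rose, 12 had both *Eef1g*-cKO libraries below both controls and 1 had both above, and the median was -0.70. Over all tested genes 4.97% were called decreased, 37.7% were below and 24.6% above, and the median was -0.23. *Fbl*, the methyltransferase of C/D particles, had a log2 fold change of -1.21 (adjusted p = 0.077), and *Nop58* one of -0.20 (adjusted p = 0.535).

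ScaRNAs had few reads. *Scarna9* had 146 and 61.4 rpm in control libraries against 107 and 199 in *Eef1g*-cKO, and *Scarna2* had 90.3, 49.85, 89.3 and 93.1. In *Scarna6* (61.7, 39.0, 53.6 and 49.0) both *Eef1g*-cKO libraries lay between the controls. *Scarna8* had 118, 8, 15 and 21 reads, and *Scarna13* had 46, 11, 1 and 2. Most reads of *Scarna8* were in control replicate 1, the deepest library, and these counts are not scaled to depth. No scaRNA passed an adjusted test by limma, edgeR or DESeq2, and the 3 whose groups did not overlap were *Scarna8*, above in *Eef1g*-cKO, and *Scarna13* and *Scarna10*, below. *Scarna10* is named after its values were seen.

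MicroRNA genes gave the fewest reads per gene: 1555 and 450 in control libraries against 88 and 157 in *Eef1g*-cKO, over 38 genes. Their mature forms are mostly shorter than the fragments kept: of 63 mature sequences matched for 35 members in RefSeq, lengths ran from 19 to 26 nt with a median of 22, and 1 reached 26 nt. Mature sequences of seed families are shown in RNA letters with the seed in capitals, the seed being bases 2 to 8 that pair with targets. They show what *Mir30a*, the microRNA gene with most reads, and some of the genes that share a seed hold. *Mir30c-1* and *Mir30c-2*, whose sequences are not printed, share the GUAAACA seed of *Mir30a* and share UGGGAGA with each other. Of *Mir677*, *Mir669c* and *Mir6236*, next by reads, *Mir677* and *Mir6236* share none of these seeds. No mature sequence was matched for *Mir669c*.
mmu-miR-30a-5p: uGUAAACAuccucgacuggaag
mmu-miR-17-5p: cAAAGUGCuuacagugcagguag
mmu-miR-20a-5p: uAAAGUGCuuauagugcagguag
mmu-miR-93-5p: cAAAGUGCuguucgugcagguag
mmu-miR-743a-3p: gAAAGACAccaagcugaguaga
mmu-miR-743b-3p: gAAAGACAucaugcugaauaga

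*Mir30a* had 211 and 58 reads in control libraries against 16 and 34 in *Eef1g*-cKO, which is 85.1, 41.9, 71.5 and 83.3 rpm, with overlap. *Mir677*, in an intron of *Atp5b*, had 56.5, 34.7, 40.2 and 31.9 rpm and *Mir6236* had 59.3, 14.5, 26.8 and 19.6, both with overlap. Of 15 genes for microRNA processing, *Lin28a*, which blocks maturation of let-7, fell by limma (165, 95, 0 and 3 reads, log2 fold change -3.53, SE 0.63, adjusted p = 0.038), none rose, and the median was -0.37. *Drosha* and *Dicer1*, the nucleases that cut the hairpins, had log2 fold changes of -0.77 and 0.24 (adjusted p = 0.118 and 0.638). The 3 genes of the AAAGUGC seed had 16, 2, 1 and 2 reads (*Mir17*), 41, 3, 0 and 0 (*Mir20a*) and 19, 0, 0 and 1 (*Mir93*). Nearly all reads of the family were in control replicate 1, the deepest library, and these counts are not scaled to depth.

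*Mir743b* was the member with most reads of a group of 8 microRNA genes within 24.8 kb of the X chromosome (X:66776757-66801585), where *Mir743* shares its seed. It had 22.6 and 45.5 rpm in control libraries against 49.1 and 73.5 in *Eef1g*-cKO, higher in both, and did not pass the test (log2 fold change 0.90, limma adjusted p = 0.187). The 8 genes summed to 96.0 and 80.9 rpm in control libraries against 125 and 147 in *Eef1g*-cKO. In 3 of the 8 both *Eef1g*-cKO libraries were above both controls, in none were both below, and none was called by adjusted p. Over all tested genes 24.6% were above and 37.7% below, and with 8 genes the count is a description.

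At this depth many low members could not be compared. Among the 136 members, 51 had at most 3 reads in each *Eef1g*-cKO library and 17 had none in either. A count of 0 there allows up to 13.4 rpm in *Eef1g*-cKO replicate 1 and 7.35 in replicate 2. The control mean exceeded the mean of these limits (10.4) for 1 of the 17, *Mir669c*, with 195 and 5 reads in control, and control replicate 2 alone was below it, so no fold change is given. The others that limma called with the largest decreases were *Snord61* (32 and 8 reads in control), *Mir7068* (16 and 9), *Mir20a* (41 and 3) and *Mir33* (4 and 9). For these 4 no difference was detectable at this depth, since their mean control levels lay under the limit.

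The control replicates lay further apart for these genes than for others, a description that was not tested. Among 49 members with at least 10 reads in every library, the median size of the log2 ratio between control replicates was 0.86, against 0.30 for 3858 other genes. It was 0.33 for the members between *Eef1g*-cKO replicates, against 0.27. In 18 of the 49 members control replicate 1 was over 2-fold higher than replicate 2, and in 3 it was over 2-fold lower. *Snord89* differed most, with 1076 reads in control replicate 1 and 22 in replicate 2.

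**Figure D4:**
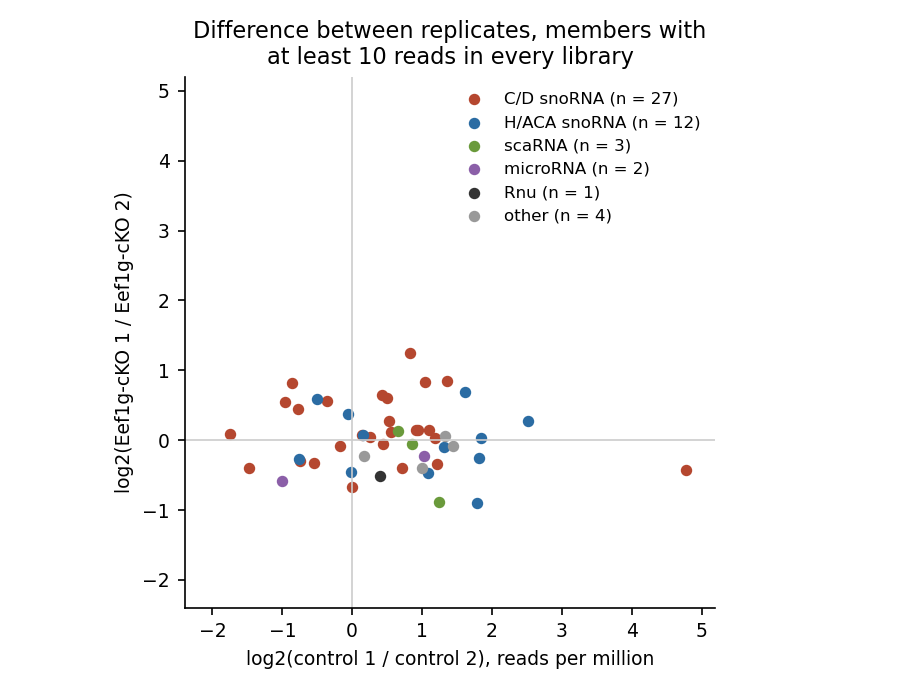
Each point is a member with at least 10 reads in every library (49 in all), with the log2 ratio of the control replicates on the x axis and that of the *Eef1g*-cKO replicates on the y axis, both in rpm. Points spread widely along x and mostly to the right of 0, while along y they stay within 1.24 of 0.

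Among markers of cell types, those of Sertoli cells were highest in control replicate 1, while those of spermatogonia and of leptotene and zygotene cells differed by genotype. The 6 Sertoli cell markers in the table summed to 966 and 239 rpm in control libraries against 232 and 152 in *Eef1g*-cKO, and none of the 6 was called. *Clu* gave most of these reads (2052, 241, 37 and 48), while the defining marker *Sox9* had 47, 18, 2 and 2 and *Gata4* 27, 6, 0 and 0. Peritubular markers (4 of 4 in the table) summed to 144 and 111 against 53.6 and 66.2. Spermatogonial markers fell, 4 of 6 by adjusted p, from 2453 and 2963 to 433 and 429. Markers of the sorted leptotene and zygotene cells were present and mostly higher, 4 of 10 increased and 1 (*Stra8*) decreased, at 3713 and 2780 against 6896 and 6250. The later pachytene markers in the table, 3 of 5, summed to 343 and 243 against 1108 and 1034. *Hist1h1t*, which was increased, gave most of this (285 and 221 against 1072 and 995). *Piwil1* went the other way (32.3 and 11.6 against 4.47 and 4.90), and *Ldhc* was higher in both *Eef1g*-cKO libraries (25.4 and 10.1 against 31.3 and 34.3). Leydig (3 of 5) and spermatid (2 of 5) markers stayed under 26 rpm in every library, and no macrophage or blood marker of the 4 in each list was in the table. The part of these differences in the values of the small RNA genes was not tested, and in bulk libraries fewer cells of a type and less RNA per cell cannot be told apart.

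Most snoRNAs are cut from introns of other genes, so each could be set beside its host. By RefSeq, 101 members lay in an intron of another gene on the same strand, among them 52 C/D and all 29 H/ACA members. Overlap with a gene that had only predicted exons was counted as intronic. For 86 members the host was also tested, over 71 hosts. Members had a median log2 fold change of 0.34 and hosts one of -0.32, and 43 of the 86 pairs had the same sign. Of the hosts, none was called increased and 6 of 71 decreased by limma's adjusted p, where all tested genes gave 2.87% and 4.97% and a median of -0.23, close to that of the hosts. Among these 6, *Rpl13* had 4.03 and 3.61 rpm in control libraries and 0 in both *Eef1g*-cKO libraries. That lay under the limit that a count of 0 allows there, so its fold change cannot be read. In *Nop56*, the host of *Snord57*, rpm were 164 and 202 in control libraries against 156 and 140 in *Eef1g*-cKO, whereas in *Tcp1*, host of *Snora20*, they were 570 and 634 against 951 and 936. For *Snora7a* the host *Rpl32* was higher in both *Eef1g*-cKO libraries (27.8 and 39.7 against 49.1 and 46.6 rpm) while the snoRNA fell. Of the host genes without a protein, 14 were tested and limma called *Snhg3*, *Snhg4* and *Snhg9* decreased, on 48, 33 and 10 reads in control replicate 1 and 1 or no reads in each *Eef1g*-cKO library. For *Snhg9*, at 4.03 and 5.78 rpm in control, the level lay under the limit that a count of 0 allows in each single *Eef1g*-cKO library, so no fold change is given. *Gas5* had a log2 fold change of 0.62 (adjusted p = 0.200) and its list a median of -0.75.

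**Figure D5:**
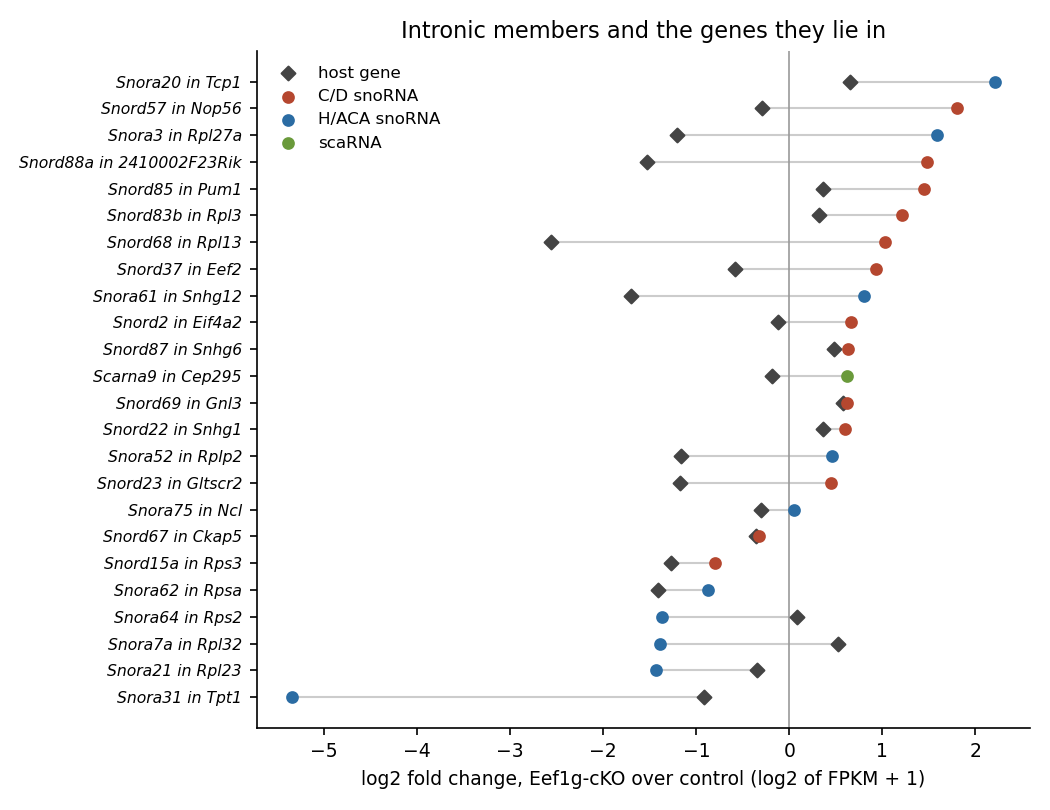
For 24 members with at least 400 reads over the 4 libraries that lie in an intron of a tested gene, the log2 fold change of the member (circle, coloured by class) is joined to that of its host (diamond). C/D circles lie mostly right of 0 while most diamonds lie left of it, and *Snora64*, *Snora7a*, *Snora21* and *Snora31* lie left of their hosts. The hosts *Rpl13*, *Rpl27a* and *Rpsa* had few reads in control and none in *Eef1g*-cKO, so the size of their change cannot be read.

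Spearman's rho between length and log2 fold change was -0.34 over all 136 members, a description over genes that share the same libraries. It was -0.61 over the 35 members with a mean of at least 100 reads, chosen after the values were seen, and -0.57 within the 17 C/D members among them. Within the 12 H/ACA members of that depth it was -0.13. Of 132 members with a position and sequence, 98 had every window of 26 nt in 1 place in the chromosomes, 48 of 54 C/D members against 10 of 28 H/ACA members. How the authors counted reads with several places is not given in the sources used here.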

How the data were processed

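Members and lists were chosen with earlier results of these data known. The authors' table held FPKM, a gene length (unit: other) and normalized counts (unit: signal) for each library, with the deposited comparison columns left unused (mean, log2 fold change, its error, statistic and p-values, under the names DESeq2 gives). Per the labels, the submitters' processing notes name cutadapt, Bowtie, STAR and builds mm10 and hg38, with no role or version. The Ribo-seq counter, its strand and its rule for reads with several places are not given in the sources used here.

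The deposited signal values were whole reads divided by 1 factor per library: 100.0% of values came out whole within 1e-06. Rpm used the totals behind the authors' FPKM. The main test was limma 3.58.1 with a trended prior on log2(FPKM + 1), over genes whose mean FPKM reached 1, adjusted by Benjamini-Hochberg over all of them. A fold change on this scale understates that of genes with a low FPKM. On 80 nt a single read is 55.8 FPKM in *Eef1g*-cKO replicate 1 and 30.6 in replicate 2. Short members can therefore show large log2 fold changes on few reads. edgeR 4.0.16 and DESeq2 1.42.0 ran on the reads in R 4.3.3. Class counts and edgeR fits with a library left out, the ratio of C/D to H/ACA reads with members left out and the counts for members with a mean of at least 100 reads were added after seeing the data. Scripts were tested on simulated data. Coordinates, hosts and sequences came from RefSeq GRCm38.p6, the assembly that mm10 names.

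Genes were named by rule: *Rn45s*, *Rpph1*, *Rmrp*, *Terc* and the Rnu genes, the 5 members with most reads in each other class, up to 5 increased and 5 decreased members by adjusted p with the largest change, and the 5 genes most like *Rnu11*. The host of 2 members is not reported here.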

Additional observations from a re-analysis of the deposited data

How the results depend on the processing

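By limma's adjusted p, 3 members were called increased and 14 decreased, where all 10475 tested genes gave 301 and 521. In brackets are counts over all tested genes. edgeR gave 13 and 7 (705 and 904 of 8056), DESeq2 10 and 2 (502 and 451 of 11598), and limma on log2(rpm + 5) 11 and 6 (546 and 1008). Pseudocounts of 0.1 and 10 FPKM gave 0 and 8 (29 and 47), and 6 and 13 (288 and 483). No filter gave 1 and 13 (205 and 373 of 11598), and at least 20 reads 5 and 7 (367 and 698 of 9755). Centring on library medians gave 6 and 14 (521 and 383), and no variance trend 0 and 0, where no gene of the table was called. Leaving out 1 library gave 0 to 6 increases and 0 to 26 decreases. By unadjusted p, 17 increases and 23 decreases became 9 to 28 and 15 to 32 with a library left out, and decreases were 7 by edgeR, 5 by DESeq2 and 12 on rpm. All other settings that used every library, except the replicate block, kept these counts within 1.5 times. Centring moved the median of all genes from -0.23 to -0.02 and that of members from 0.16 to 0.37. Replicate numbers are shared between groups, but same-numbered libraries did not deviate together (correlation -0.01 over 10475 genes). With a replicate block 9 members were increased and 19 decreased after adjustment (424 and 822 of all tested genes). Before adjustment they were 23 and 35 (772 and 1825), and the share difference stayed -3.04 percentage points.

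The share difference of -3.04 percentage points became 0.54 with *Rnu11* left out of members and totals, and ranged from -6.90 to 0.83 with a library left out. For members other than *Rnu11* it was 0.83, from -1.59 to 3.26 with a library left out, and 14.6 as a share of summed FPKM. Among 33 named genes, 12 of 488 refitted log2 fold changes reversed. They were *Rn45s* by DESeq2 (-0.0042), *Rmrp* after centring (0.069), and values with a library left out, which ranged from -0.61 to 0.84 for *Rn45s*, -0.65 to 0.36 for *Rmrp*, -0.23 to 1.09 for *Terc*, -0.0011 to 1.25 for *Scarna9*, -0.27 to 0.39 for *Scarna6*, -0.14 to 0.88 for *Mir30a*, -0.66 to 0.046 for *Mir677* and -1.37 to 0.66 for *Mir6236*. The cause of these shifts was not tested. The depth of the *Eef1g*-cKO libraries leaves members with few reads without a usable comparison.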
